A study of Homo sapiens with 6 samples.

Results

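The SPANX genes of the A to D type are a tight family of cancer-testis genes on the long arm of the X chromosome. The microarray used here carried 11 probes, of 47319 in all, annotated by symbol to the 5 genes SPANXA1, SPANXA2, SPANXB1, SPANXC and SPANXD: 2 for SPANXA1, 1 for SPANXA2, 3 for SPANXB1, 1 for SPANXC and 4 for SPANXD, out of 20045 genes named on the array. The family was chosen because its probes had read higher in both knockdowns than in control cells in these same arrays, so the differences from control are given as a description and carry no test. The arrays measured MDA-MB-231, an established basal-like human breast cancer cell line, in 3 groups of 2. Control cells were labelled control for hairpin expression, without a statement of whether they carried a hairpin of their own. DICER1-sh cells stably expressed a small hairpin RNA against DICER1, the cytoplasmic enzyme that finishes miRNAs, and DROSHA-sh cells stably expressed one against DROSHA, the nuclear enzyme that starts their processing. All cells were grown in the same serum-containing medium and were otherwise untreated. The labels give no number of hairpins or clones per knockdown, and they leave it unsaid if duplicate arrays stem from independent cultures. Any p-value below is thus set against a spread among arrays that could be purely technical. All 6 arrays sat on 1 chip with their positions in the order of the groups, so position and group cannot be told apart. In such bulk RNA, fewer transcribing cells and less RNA per cell cannot be told apart either.

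SPANX stands for sperm protein associated with the nucleus on the X chromosome. In healthy adults the A to D genes are transcribed mainly in the testis after meiosis, and the small proteins are found at the nuclear envelope and nuclear craters of sperm. Many tumours and tumour cell lines transcribe them as well, and loss of DNA methylation at their promoters accompanies that activation, which places the family among the cancer-testis antigens. The 5 genes arose by recent duplication and their transcripts are nearly identical, so a probe designed for one copy may read several. The probe sequences were not used here, and a gene name below is therefore the annotation of a probe rather than proof of which copy was transcribed.

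The likeness of the copies is visible in the 250 bases before each annotated transcription start, taken from RefSeq on GRCh38.p14, where all 5 members had an entry. All 5 members have a probe annotated to them that read higher in both knockdowns, and the sequences of SPANXA1, SPANXB1 and SPANXC are shown as examples. Those of SPANXA2, the same as SPANXA1, and of SPANXD, which lies further upstream and is unlike the others, are not shown. SPANXN1 is shown as a member of the related SPANXN branch, and its probe was above background on no array. Capitals mark CG dinucleotides, the sites of DNA methylation, and each sequence runs 5′ to 3′ on the strand of its gene.
SPANXA1 (chrX:141584739-141584988, minus strand): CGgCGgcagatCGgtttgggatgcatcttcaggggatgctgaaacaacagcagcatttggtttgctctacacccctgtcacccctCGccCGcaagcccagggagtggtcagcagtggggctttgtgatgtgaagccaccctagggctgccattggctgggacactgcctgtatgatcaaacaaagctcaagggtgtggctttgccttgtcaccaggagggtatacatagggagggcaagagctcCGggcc
SPANXB1 (chrX:141002344-141002593, plus strand): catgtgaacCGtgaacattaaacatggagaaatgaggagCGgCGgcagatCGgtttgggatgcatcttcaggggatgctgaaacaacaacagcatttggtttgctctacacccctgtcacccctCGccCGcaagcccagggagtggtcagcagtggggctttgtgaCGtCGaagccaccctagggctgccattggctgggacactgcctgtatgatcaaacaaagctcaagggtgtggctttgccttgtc
SPANXC (chrX:141242518-141242767, minus strand): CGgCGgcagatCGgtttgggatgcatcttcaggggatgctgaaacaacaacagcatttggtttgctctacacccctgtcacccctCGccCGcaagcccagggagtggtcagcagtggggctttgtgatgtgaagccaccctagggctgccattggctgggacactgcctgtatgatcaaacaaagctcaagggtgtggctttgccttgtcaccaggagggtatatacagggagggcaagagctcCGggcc
SPANXN1 (chrX:145247253-145247502, plus strand): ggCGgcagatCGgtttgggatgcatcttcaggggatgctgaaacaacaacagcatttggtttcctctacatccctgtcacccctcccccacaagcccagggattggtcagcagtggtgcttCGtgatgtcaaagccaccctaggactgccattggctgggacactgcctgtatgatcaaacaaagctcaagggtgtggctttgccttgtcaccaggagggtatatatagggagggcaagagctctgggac
The SPANXA2 window matched that of SPANXA1 at all 250 bases, and SPANXC matched SPANXA1 at 247 of 250. The start of SPANXB1 is annotated at another point, which left 210 aligned bases with SPANXA1, of which 208 were identical. The SPANXN1 window matched SPANXA1 at 236 of 249 aligned bases. The SPANXD window lies further upstream and overlapped that of SPANXB1 by 16 bases, all identical.

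The member windows held fewer CG dinucleotides than the median promoter but lay within its quartiles. The windows of SPANXA1, SPANXA2 and SPANXC held 6 each, SPANXB1 held 8 and SPANXD held 4, against a median of 11 over 35116 human promoter windows of the same length (quartiles 3 and 23). The SPANXN windows held between 1 and 4. A few short motifs, chosen after the windows had been read, were then searched on both strands. CCAAT was present in all 5 member windows and in 32% of all promoters, and CTTTGT, one form of the core that LEF and TCF factors bind, was in every member window except that of SPANXD and in 13.7% of all promoters. Both were also in the windows of SPANXN1, SPANXN2, SPANXN3 and SPANXN5, so neither sets the members apart from their relatives. TGACGTC, which overlaps the cAMP response element, was in the SPANXB1 window but in no other member's, against 3.12% of all promoters. TATAAA was in none of the 5 windows and in 10.7% of all promoters.

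Most SPANX probes read far above background in control cells already. A probe was called above background on an array where its deposited detection p-value, a comparison with the array's negative control probes, was below 0.05. Of the 11 probes, 7 were above background on all 6 arrays, 1 on 5 arrays (SPANXA1 probe ILMN_2233314), 1 on 4 arrays (SPANXB1 probe ILMN_2211032) and 2 on no array. A total of 9 passed the filter of at least 2 arrays, which 22091 probes of the whole array passed. The median probe of an array had a raw intensity between 150.2 and 166.7.

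For SPANXB1, probe ILMN_2211030 read raw intensities of 4720 and 9261 on the control arrays, 18340 and 11591 on the DICER1-sh arrays and 17314 and 16585 on the DROSHA-sh arrays. The SPANXA2 probe ILMN_1653415 read 4140 and 8761 in control, 15797 and 11501 in DICER1-sh and 16582 and 15924 in DROSHA-sh cells, in each case in the order replicate 1, replicate 2. In what follows, 8 probes are set apart as separating probes, a group formed after their values were seen: the 7 above background on all arrays and ILMN_2233314. For the SPANXB1 and SPANXA2 probes the 4 knockdown arrays lay above the 2 control arrays, and control 1 was the lowest by a wide margin. The SPANXC probe ILMN_2198300 read 2515 and 4282 in control, 8511 and 6186 in DICER1-sh and 8764 and 8283 in DROSHA-sh cells. It showed the same order of groups without overlap.

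Of the 4 SPANXD probes, 3 were above background on all arrays. Probe ILMN_1732781 read 2206 and 4074 in control, 6819 and 6060 in DICER1-sh and 9434 and 8600 in DROSHA-sh cells, and probe ILMN_2132100 read 2102 and 4571, 6982 and 5874, and 8671 and 7930. Probe ILMN_1713125 read 534 and 1104 in control, 1614 and 1237 in DICER1-sh and 1925 and 2140 in DROSHA-sh cells. In all 3 the control arrays were lowest and the DROSHA-sh arrays highest. The other SPANXD probe, ILMN_3242729, read between 120 and 159 on the 6 arrays and was never above background, so it gives no level.

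SPANXA1 had 2 probes. Probe ILMN_2233319 read 519 and 654 in control, 1041 and 1013 in DICER1-sh and 1051 and 1205 in DROSHA-sh cells. Probe ILMN_2233314 read 161 on control 1, where its detection value of 0.149 missed the threshold, and 220 on control 2, against 362 and 379 in DICER1-sh and 365 and 282 in DROSHA-sh cells. Both separated the knockdown from the control arrays. The remaining SPANXB1 probes did not. ILMN_2211032 read 167 and 203 in control, 180 and 151 in DICER1-sh and 187 and 241 in DROSHA-sh cells, close to background throughout, and ILMN_3244713 read between 126 and 150 and was never above background.

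**Figure D1:**
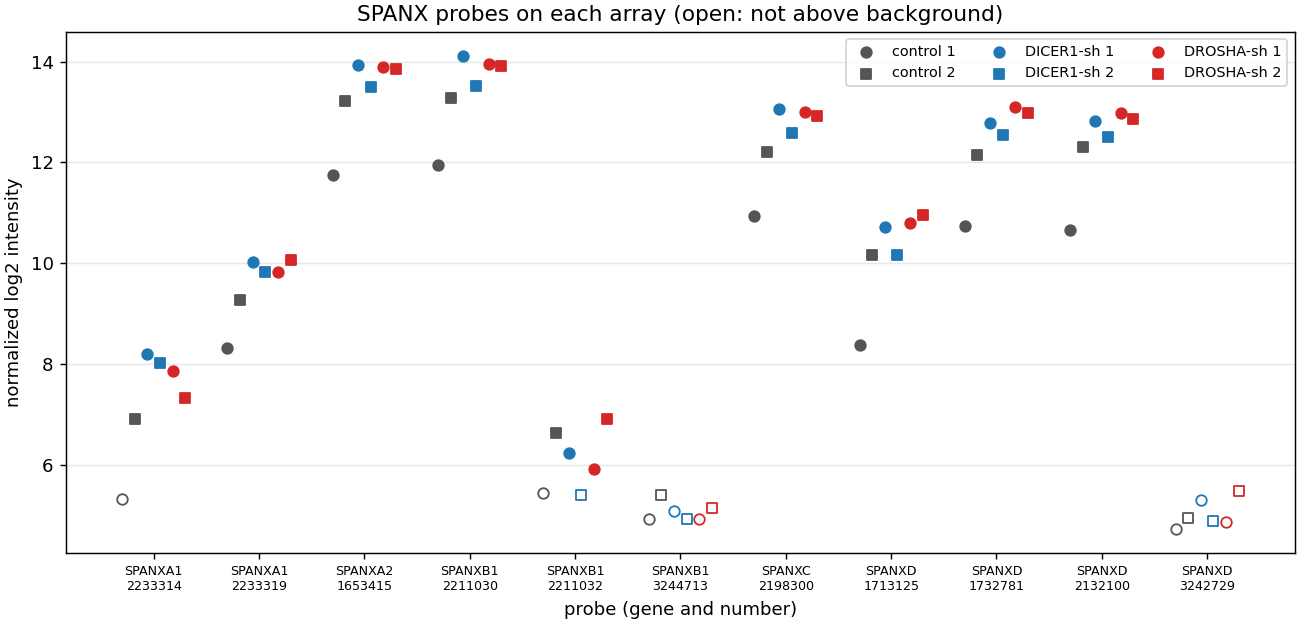
Normalized log2 intensity (vertical axis) of the 11 SPANX probes (horizontal axis, gene and probe number) on the 6 arrays, with circles for replicate 1, squares for replicate 2 and open symbols where a probe was not above background. In 8 probes all 4 knockdown arrays lie above both control arrays, with control 1 lowest, and the other 3 probes stay near background.

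After background correction and quantile normalization, the log2 intensity of SPANXB1 probe ILMN_2211030 was 12.62 ± 0.94 in control, 13.81 ± 0.43 in DICER1-sh and 13.93 ± 0.03 in DROSHA-sh cells (SD, n = 2). That is 2.29-fold higher in DICER1-sh and 2.49-fold higher in DROSHA-sh cells, with log2 differences of 1.19 and 1.31 and a standard error of 0.46 for each. SPANXC probe ILMN_2198300 stood 2.39-fold and 2.62-fold higher, and SPANXA2 probe ILMN_1653415 2.35-fold and 2.63-fold higher. SPANXA1 probe ILMN_2233319 had the smallest difference in DROSHA-sh cells of the 8 separating probes, at 2.20-fold in DICER1-sh and 2.22-fold in DROSHA-sh cells.

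The 3 separating SPANXD probes stood between 2.25-fold and 2.34-fold higher in DICER1-sh cells and between 2.71-fold and 3.06-fold higher in DROSHA-sh cells. SPANXA1 probe ILMN_2233314 went the other way between the knockdowns, with a log2 difference of 2.00 (standard error 0.51) in DICER1-sh and 1.49 in DROSHA-sh cells. Its value in DICER1-sh cells ranked 1 among the 22091 probes, but it rests on a control array at background and fell to 1.05 when no background was subtracted. The 3 other probes had log2 differences of -0.21 and 0.38 (ILMN_2211032), -0.16 and -0.14 (ILMN_3244713) and 0.25 and 0.34 (ILMN_3242729) in DICER1-sh and DROSHA-sh cells. Over all 11 probes the median log2 difference was 1.18 in DICER1-sh and 1.39 in DROSHA-sh cells, where the median of all 22091 probes was 0.006 and 0.012. Both differences share the control arrays.

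The 4 knockdown arrays lay above both control arrays in 8 of the 11 SPANX probes, and the same was true of 4.93% of all probes that passed the filter. At least 2-fold higher means in each knockdown were found for those 8 probes, and for 0.109% of all probes, or 24 in number, of which the SPANX probes themselves are 8. The shares at least 2-fold higher were 0.308% in DICER1-sh and 0.896% in DROSHA-sh cells taken alone. Because the family was selected on these comparisons, the counts describe the choice and are not evidence for it.

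**Figure D2:**
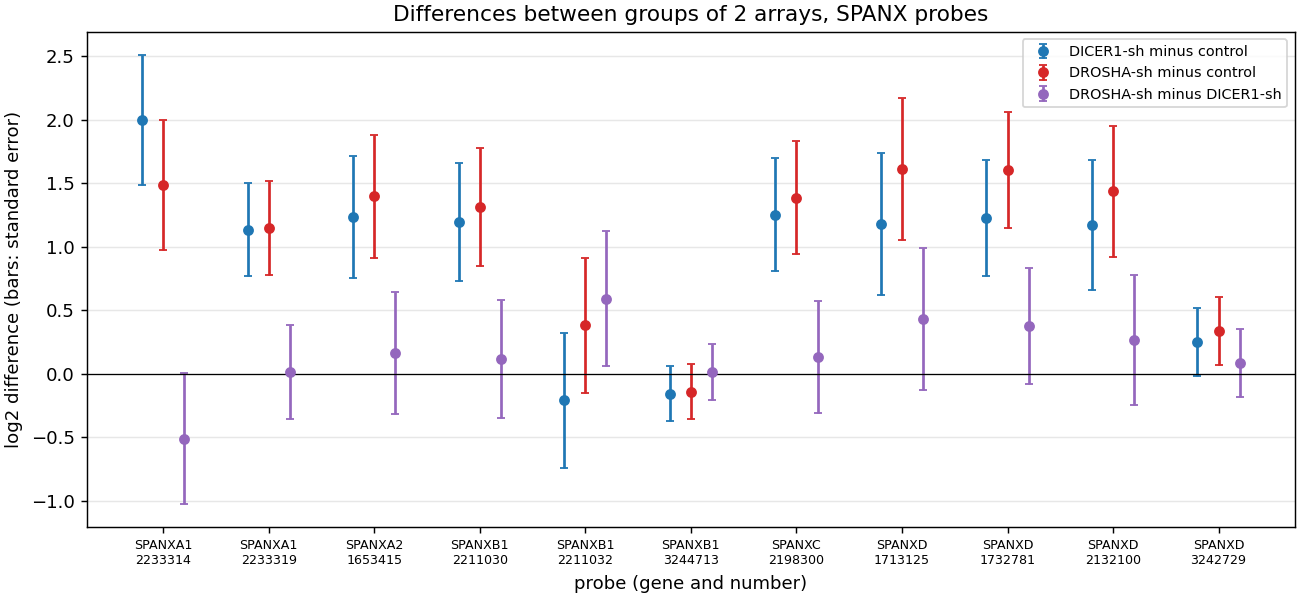
Log2 difference between group means (vertical axis, bars show the standard error of the limma fit, 2 arrays per group) for the 11 SPANX probes (horizontal axis) in 3 comparisons. The 8 probes that separate the groups lie between 1.14 and 2.00 for the knockdowns against control, while the differences between the knockdowns lie around 0, from -0.51 to 0.43 in those probes.

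The size of the difference depended on which control array it was taken from. In the 8 separating probes control 2 exceeded control 1 by 0.96 to 1.79 on the log2 scale, a gap that between 2.19% and 21.1% of all probes exceeded. The lowest knockdown array stood above control 2 by 0.55 at most (SPANXA1 probe ILMN_2233319) and by only 0.012 in SPANXD probe ILMN_1713125. Without control 1, the log2 differences of the 8 probes fell to between 0.28 and 1.20 in DICER1-sh and between 0.63 and 0.93 in DROSHA-sh cells, and 1 of 8 and 0 of 8 were still at least 2-fold. Without control 2 they were between 1.61 and 2.82 in DICER1-sh and between 1.63 and 2.51 in DROSHA-sh cells. Every one of these values was above 0. That sign was set by the order of the arrays, since each knockdown array lay above both control arrays in these probes.

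**Figure D3:**
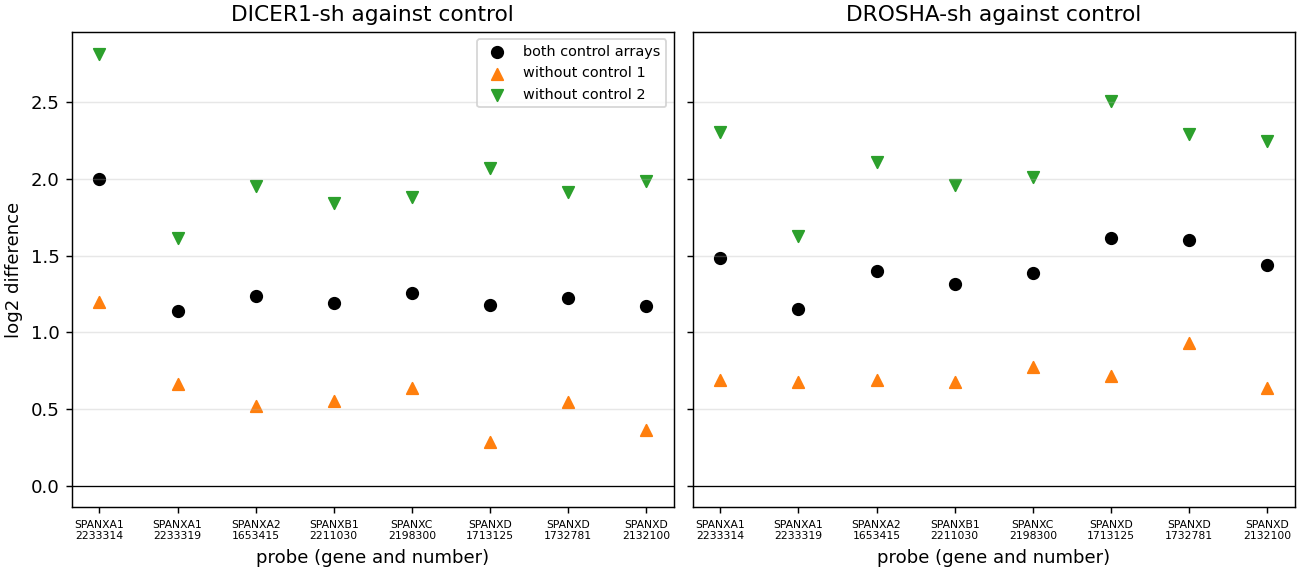
Log2 difference from control (vertical axis) of the 8 separating SPANX probes (horizontal axis) in DICER1-sh cells (left) and DROSHA-sh cells (right), with both control arrays (black circles), without control 1 (orange triangles) and without control 2 (green triangles). All points are above 0, and the values without control 1 are the lowest for every probe, between 0.28 and 1.20. Both follow from the order of the arrays in these probes, with control 1 lowest.

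Array differences within groups ran along a common axis. The first component of the deviations from the group means held 76.2% of that variance and set control 1 (score 53.8) and DICER1-sh 2 (46.2) apart from control 2 (-53.8) and DICER1-sh 1 (-46.2), with DROSHA-sh 1 and 2 near 0 (-0.78 and 0.78). SPANX signal was lower on the positive side in both pairs: control 1 lay below control 2, and DICER1-sh 2 below DICER1-sh 1, in all 8 separating probes, the latter by 0.17 to 0.60. Opposed pairs were common on the array: over 22091 probes the deviations of control 1 and DICER1-sh 1 correlated at -0.65. The 8 probes may also read the same transcripts. The 2 DROSHA-sh arrays differed by at most 0.23 in the 7 probes above background on all arrays. With this score as a covariate, chosen after the data were seen, the differences from control were the same size, since the scores are balanced within each group, and their standard errors went from between 0.37 and 0.56 to between 0.21 and 0.33. The score was computed from the deviations of these same arrays, so smaller standard errors follow from its construction. The part of this axis in the SPANX levels was not tested further.

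The direct comparison of the 2 knockdowns was not used to choose the family. Its differences do not involve the control arrays, but its standard errors come from the fit of all 6 arrays and so include the spread of the control pair. Of the 8 separating probes, 7 had a higher mean with the DROSHA hairpin than with that against DICER1, by log2 differences of 0.01 to 0.43, where 50.8% of all probes lay above 0, and 1, ILMN_2233314 of SPANXA1, was lower at -0.51. Probes of this family may read the same transcripts, so they do not count as separate observations. The arrays of the 2 groups did not overlap for the 3 separating SPANXD probes, which were higher in DROSHA-sh, and for ILMN_2233314, which was lower, where 16.3% and 16.9% of all probes separated in those directions. For ILMN_2233314 this held after normalization but not in the raw intensities, where DROSHA-sh 1 at 365 lay between the DICER1-sh arrays. SPANXD probe ILMN_1713125 had the largest difference upward among the 8, 0.43 with a 95% interval of -0.89 to 1.76, and SPANXD probe ILMN_1732781 stood at 0.38 with an interval of -0.70 to 1.45. For SPANXB1 probe ILMN_2211030 the difference was 0.12 with an interval of -0.97 to 1.22. No SPANX probe passed the test, with every adjusted p at 1.00 in limma. The interval reached past a 2-fold difference downward for ILMN_2233314 (-1.72 to 0.70) and upward for 6 of the other 7. Fitted on the 4 knockdown arrays alone, the standard errors were between 0.23 and 0.28 in place of 0.37 to 0.56. The intervals then reached past 2-fold for ILMN_2233314 (-1.20 to 0.18) and for SPANXD probe ILMN_1713125 (-0.26 to 1.13) and for none of the other 6, and every interval included 0. Neither fit shows the knockdowns to differ or to be alike in SPANX level. Without DICER1-sh 2 the differences of SPANXA1 probe ILMN_2233319 (-0.08), the SPANXA2 probe (-0.05), SPANXB1 probe ILMN_2211030 (-0.18) and the SPANXC probe (-0.11) turned below 0.

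In that comparison limma called 0 of 22091 probes at an adjusted p below 0.05 (0.0%) and 494 at an unadjusted p below 0.05 (2.24%). The counts were also 0 for DICER1-sh against control, with 384 below an unadjusted p of 0.05 (1.74%), and 0 for DROSHA-sh against control, with 622 (2.82%). The targeted transcripts were lowest in their own knockdown on every array: DICER1 probe ILMN_1772692 was 2.67-fold lower in DICER1-sh and DROSHA probe ILMN_1790410 4.77-fold lower in DROSHA-sh cells, neither past an adjusted p of 0.05 in limma (0.969 and 0.736). All 10 listed markers of the basal-like mesenchymal line, VIM and CD44 among them, were above background on all 6 arrays, while of 12 luminal breast genes 6, among them EPCAM, KRT8 and KRT18, were on all arrays and 4, ESR1, PGR, CDH1 and TFF1, on none.

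The SPANXN branch, the older relatives of the family with testis expression of their own, was almost wholly below background. The array held 1 probe for each of SPANXN1 to SPANXN5. A probe below background does not show its gene to be silent, since SPANXB1 and SPANXD also had such a probe beside bright ones. Probes of SPANXN1, SPANXN2, SPANXN3 and SPANXN4 were above background on no array, and the SPANXN5 probe only on DICER1-sh 2, at a raw intensity of 167 and a detection p of 0.0364. A list of neighbours in Xq26 to Xq28, in which the SPANXN genes were counted although SPANXN5 lies on the short arm, had 17 genes on the array. Of these, 12 were above background on no array, including the cancer-testis genes MAGEC1 and MAGEC2 that follow SPANXD on the chromosome, and 2 passed the filter. LDOC1, a regulator of transcription and apoptosis whose gene lies between SPANXB1 and SPANXC, had log2 intensities of 5.78 and 6.68 in control, 7.58 and 6.55 in DICER1-sh and 7.36 and 6.90 in DROSHA-sh cells. Its log2 differences were 0.83 and 0.90 with a standard error of 0.46, and the DICER1-sh arrays overlapped the control arrays. UBE2NL stood at 0.05 and -0.49. Neither passed the test (limma adjusted p = 0.969 in DICER1-sh and 0.856 in DROSHA-sh for LDOC1).

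The other cancer-testis genes had smaller differences from control. Of 66 on the array, 37 were above background on no array and 15 passed the filter. Most of these 15 read near background, where SPANX probes also had small differences, so the list does not set SPANX apart. CT83, on the X chromosome and above background on all 6 arrays, stood at 0.52 and 0.27 (standard error 0.51). Control 1 was its lowest array at 7.02, and the DROSHA-sh arrays, at 8.11 and 8.02, lay below control 2 at 8.56. None passed the test in any comparison, 0 were at least 2-fold higher in either knockdown, and the median log2 difference was 0.015 in DICER1-sh and -0.007 in DROSHA-sh cells. The 4 knockdown arrays lay above both control arrays for 1 of the 15, MAGEB2, and below both for 1, PBK, against 4.93% and 4.37% of all probes. The largest difference upward in DICER1-sh cells was that of MAGEA2, at 0.72 (standard error 0.27), which was above background on 2 arrays, both of DICER1-sh cells, and stood at -0.01 in DROSHA-sh cells. MAGEB2, of the same family of antigens, stood at 0.42 and 0.28, MAGEA6 at 0.02 and -0.55, and SSX4 at 0.33 and 0.01. The list also holds genes of dividing cells, and of these ATAD2, a chromatin ATPase, stood at -0.53 and -1.03 (standard error 0.52). The kinase PBK stood at -0.50 and -0.34 (0.32) and CEP55, which acts in cell separation, at -0.38 and -0.43 (0.38). Control 1 was the highest array for ATAD2, PBK and CEP55, and DICER1-sh 2 lay above control 2 for ATAD2 and CEP55.

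Male germ cell genes were mostly below background. Of 33 on the array, 23 were above background on no array, among them DDX4 and DAZL of early germ cells and PRM1, PRM2, TNP1 and TNP2, which package sperm DNA. The 6 that passed the filter had a median log2 difference of 0.12 in each knockdown, and none passed the test. Their summed normalized intensity ran from 1213 to 1326 in control, 1223 to 1715 in DICER1-sh and 1385 to 1527 in DROSHA-sh cells. TDRD1, a Tudor protein of the germ cell piRNA pathway, stood at 0.39 and 0.55 (standard error 0.27). HSPA1L, a heat shock protein of the testis, stood at 0.09 and 0.68. It was above background on only 2 arrays and read highest on the DROSHA-sh arrays. TEKT1 stood at -0.55 and -0.35, SPO11 at -0.70 and 0.13, ODF2 at 0.26 and 0.12, and SYCP3 at 0.15 and -0.29. Of 7 melanocytic genes, from another cell lineage in which tumours transcribe SPANX, 5 were above background on no array, and MITF was the 1 that passed the filter.

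Genes of DNA methylation and silencing were measured because promoter methylation is known to hold the family silent. Of 34 on the array 27 passed the filter and 0 passed the test, with a median log2 difference of -0.056 in DICER1-sh and -0.19 in DROSHA-sh cells. HELLS, a chromatin remodeller needed for DNA methylation, had the smallest p in DROSHA-sh cells at -0.90 (standard error 0.35), and UHRF1, which brings DNMT1 to newly copied DNA, stood at -0.73 (standard error 0.30). In DICER1-sh cells HELLS stood at -0.22 and UHRF1 at -0.20. DNMT1, the maintenance methyltransferase, stood at -0.39 and -0.58 (standard error 0.37), HDAC2 at -0.37 and -0.42 (0.30) and ZBTB33 at -0.31 and -0.59 (0.41). DAXX stood at 0.54 and 0.52 (0.41) and the glycosylase MBD4 at 0.39 and 0.35 (0.26). Control 1 was the highest array for HELLS, UHRF1, DNMT1, HDAC2 and ZBTB33, and DICER1-sh 2 lay above control 2 in each. For DAXX control 1 was the lowest array. None of these genes had an adjusted p below 0.856 in limma.

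Nuclear envelope genes, which encode the structure where SPANX proteins reside, gave 12 measured members of 12. The median log2 difference was -0.060 in DICER1-sh and -0.27 in DROSHA-sh cells, and none passed the test. LBR, the lamin B receptor, stood at -1.11 and -1.08 with a standard error of 1.05, and TMPO, a lamina-associated protein, at -1.01 in DICER1-sh cells with a standard error of 0.77. Control 1 was the highest array for both. The lamin LMNB1 stood at -0.18 and -0.53, SYNE2 at -0.30 and -0.45, and BANF1, which ties chromatin to the envelope, at 0.36 and 0.71. SYNE1 stood at 0.31 and -0.01, was above background on only 2 arrays and read highest on the DICER1-sh arrays.

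**Figure D4:**
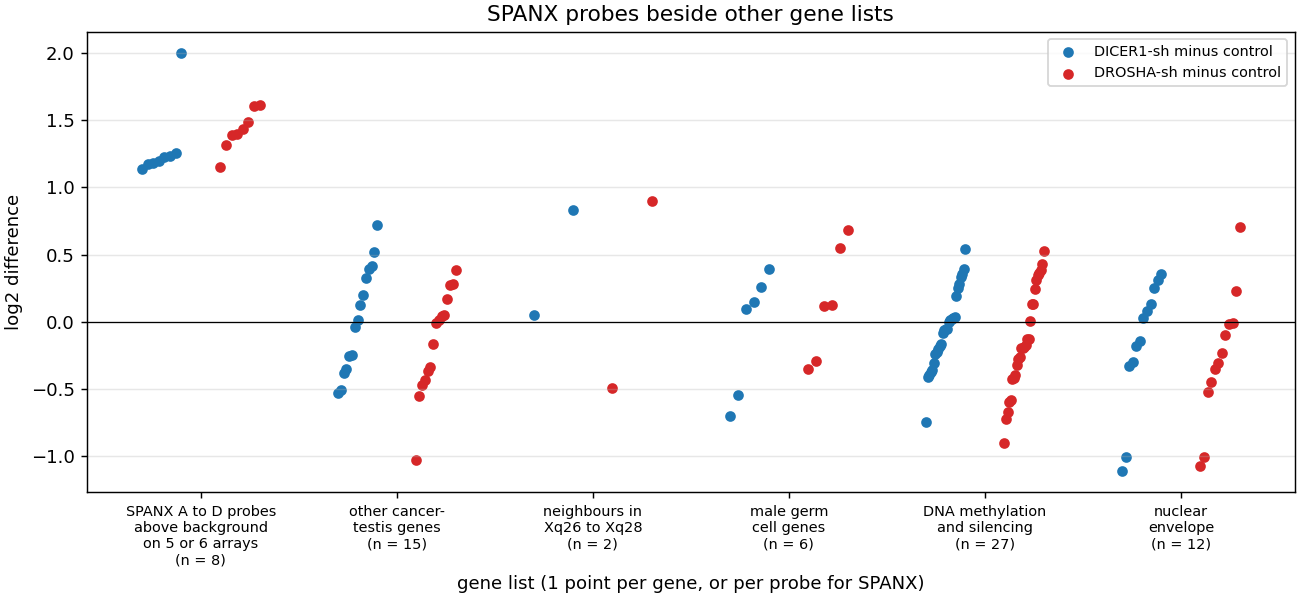
Log2 difference from control (vertical axis) in DICER1-sh (blue) and DROSHA-sh cells (red) for the 8 separating SPANX probes and for each measured gene of 5 lists (horizontal axis, 1 point per gene, with the number of points). The SPANX probes were chosen for this difference and lie between 1.14 and 2.00, and the highest gene of the other lists is LDOC1 at 0.90.

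Likeness over the 6 arrays was measured against SPANXB1 probe ILMN_2211030, the SPANX probe with the highest mean intensity. By this measure the other 7 separating probes had a Pearson r between 0.931 and 0.998 with it over the 6 arrays, and the 3 probes near background between 0.155 and 0.663. The separating probes were chosen for the same difference between arrays, which largely sets their likeness. All values describe 6 arrays of 1 chip. Of 13211 named probes outside the family that were above background on all 6 arrays, 1054 (7.98%) had an r above 0.9 with the same reference. The 5 highest were ULBP2, a stress ligand of natural killer cells (r = 0.994), FAAP24 of the Fanconi anaemia complex (0.994), PGAP2, which matures GPI anchors (0.993), the mitochondrial TMEM126A (0.993) and the histone gene H2AC20 (0.992). ULBP2 had log2 intensities of 7.51 and 8.34 in control, 9.05 and 8.48 in DICER1-sh and 8.89 and 8.90 in DROSHA-sh cells. The 5 most opposed were KANSL1 of a histone acetyltransferase complex (-0.994), the interferon-induced IFIT2 (-0.993), TBC1D4 (-0.992), RTTN (-0.992) and SMAD4, the common mediator of TGF-beta signals (-0.991). SMAD4 had a log2 intensity of 11.99 on control 1 and 10.92 on control 2, a gap of the opposite sign to that of the SPANX probes. None of these 10 genes is on the X chromosome.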

How the data were processed

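Total RNA of 6 samples was labelled with biotin and hybridised to 1 Illumina BeadChip, per the labels. The authors deposited mean bead intensity per probe without scaling between arrays, the detection p-value of every probe, and a second table of background-subtracted intensity brought to a common distribution. The submitters' processing notes name GenomeStudio, and the method of normalization is not given in the sources used here. Intensities were processed here in R 4.3.3 by the neqc function (limma 3.58.1; normexp fitted through the detection p-values, offset 16, quantile normalization, log2). Probes with a detection p-value below 0.05 on at least 2 arrays were kept, 22091 of 47319. Each probe was tested as itself. All 6 arrays entered 1 fit with lmFit and eBayes (3 residual and 4.09 prior degrees of freedom), with Benjamini-Hochberg adjustment over all kept probes. The fit was tested on simulated data with changes larger than those of most SPANX probes. A first simulation, with smaller changes about as large as theirs and an unmoderated spread, had recovered none. Probes that did not pass the test may thus still differ between groups. Between 42.0% and 44.4% of probes were above background per array. Precision is limited by having 2 arrays per group.

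Of the probes, 30112 had 1 gene symbol, 8 several and 17199 none. For 30073 probes with 1 symbol the Entrez number was found in RefSeq, and the symbol given there was used, changed or not. The array annotation names no build, so gene coordinates are given for promoter windows alone. A gene in a list is represented by its kept probe with the highest mean. Named are all SPANX probes, DICER1 and DROSHA, up to 4 members per list with the smallest p in each comparison with control, and the 5 highest and 5 lowest correlations with the brightest SPANX probe. CT83 is named besides, as a listed gene above background on all arrays. Undetected genes are named as examples of their list, chosen after detection was known. The listed SPANXE is a synonym of SPANXC and was left out of the neighbours, and SPANX probes were left out of the correlation ranking. The members, the lists and the tests were chosen with earlier results of these data known. Replicate numbers did not pair the arrays: deviations of same-numbered arrays correlated at -0.65 for control and DICER1-sh, -0.03 for control and DROSHA-sh and 0.02 for DICER1-sh and DROSHA-sh. The alternatives are given in the closing section. Intensities of different probes carry different probe affinities, so their order says nothing of transcript levels.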

Additional observations from a re-analysis of the deposited data

How the results depend on the processing

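The SPANX differences, their medians and the counts of calls were recomputed under 18 other settings and 2 more chosen after the data were seen, of which up to 2 left out a given separating probe. Gene lists, target probes and correlations were not recomputed. The 8 SPANX probes that separated the groups stayed above 0 against control in all 312 recomputed values, between 0.28 and 2.82 on the log2 scale. In these probes every knockdown array lay above both control arrays, so leaving out an array could hardly turn the sign. Only the size of the values is informative here. The median over 11 SPANX probes was between 0.52 and 1.88 in DICER1-sh, between 0.68 and 2.01 in DROSHA-sh and between -0.06 and 0.37 for DROSHA-sh against DICER1-sh when 1 array was left out, and between 1.05 and 1.20, 1.30 and 1.39, and 0.11 and 0.16 under the other alternatives. With 1 array left out, a difference changed sign for SPANXB1 probe ILMN_2211032, near background (from -0.78 to 0.39 in DICER1-sh and from -0.20 to 0.99 in DROSHA-sh against control), and, for DROSHA-sh against DICER1-sh, for SPANXA1 probe ILMN_2233319 (-0.10 to 0.13), the SPANXA2 probe (-0.053 to 0.37), SPANXB1 probe ILMN_2211030 (-0.18 to 0.42) and the SPANXC probe (-0.11 to 0.37). Leaving out an array left the count of probes past an adjusted p of 0.05 at 0 in each comparison. For DROSHA-sh against DICER1-sh that count went from 0 to 1 with 1 probe per gene, 2 with array weights, 4 with the within-group axis as a covariate and 6 with a crossed replicate block (control 1 and DROSHA-sh 1 with DICER1-sh 2). For DROSHA-sh against control it went from 0 to 5 with the axis and 6 with the crossed block. The axis was computed from the within-group deviations of these same arrays, and the crossed block was chosen after they were seen. Both therefore take up spread within groups, and the added calls are not evidence of a difference. A replicate block by the labels' numbers left the counts at 0 and the SPANX medians at 1.18, 1.39 and 0.13. One probe with a control array at background, SPANXA1 ILMN_2233314, was between 1.05 and 2.63 in DICER1-sh under the settings that kept all arrays.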
